A study of Mus musculus with 4 samples.

Results

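Collagen genes and the genes of collagen-processing enzymes were examined in MC38 cells, a mouse colon cancer line. The set held 59 of the 26322 genes listed. It comprised all 44 symbols that name a collagen chain (Col, a type number, a, a chain number) and 15 genes that act on procollagen: the prolyl 4-hydroxylases P4ha1 to P4ha3, the lysyl hydroxylases Plod1 to Plod3, the chaperone Serpinh1, the C-proteinase Bmp1 with its enhancers Pcolce and Pcolce2, and the oxidases Lox and Loxl1 to Loxl4. The cells had received Cas9 ribonucleoprotein by electroporation, with a non-targeting guide in the control group (sgNT, labelled WT) and a guide to Cbfb in the other (sgCbfb, labelled CbfbKO). Cbfb encodes CBFβ, the partner subunit of the RUNX transcription factors. RNA was taken at least 1 week later from 2 samples per group, and 3′ mRNA libraries were made from RNA with an integrity number above 9. A single Cbfb guide was used, the labels do not say whether the cells were cloned, and they do not say whether the 2 samples of a group were separate cultures, so that p-values measure the spread between these samples, which may be technical.

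Collagens are secreted proteins in which chains wind into a triple helix. Glycine has to open every triplet of residues in the helical stretch, because no larger residue fits at the centre. In the endoplasmic reticulum, prolyl 4-hydroxylases stabilise the helix by hydroxylating prolines, lysyl hydroxylases modify lysines, and Serpinh1 (HSP47) binds the folded procollagen. Outside the cell, Bmp1 removes the C-propeptide of fibrillar procollagens with help from the Pcolce proteins, and Lox enzymes start the crosslinks between collagen molecules. Fibrillar types bear tension, type IV collagen forms the sheet of basement membranes, and type VIII is a short-chain collagen of networks in vessels and cornea.

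The repeat can be read in the coding sequences, given here from GENCODE M21 for 4 of the chains whose levels are described next. Each line shows 24 codons from the start of the longest unbroken repeat of the chain, 5′ to 3′, with the glycine codon (GG and any base) that opens each triplet in capitals. Glycine codons at other places of a triplet are in lower case.

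Col8a1: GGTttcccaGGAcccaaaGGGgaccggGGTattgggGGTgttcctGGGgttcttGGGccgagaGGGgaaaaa
Col3a1: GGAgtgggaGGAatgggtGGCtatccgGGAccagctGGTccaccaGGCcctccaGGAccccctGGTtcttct
Col5a1: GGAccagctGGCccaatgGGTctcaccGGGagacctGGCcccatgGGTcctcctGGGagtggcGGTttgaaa
Col7a1: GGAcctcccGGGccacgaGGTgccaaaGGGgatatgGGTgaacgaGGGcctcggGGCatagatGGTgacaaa

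The stretches begin at codon 355 of Col8a1, 164 of Col3a1, 559 of Col5a1 and 2518 of Col7a1. In Col3a1 and Col5a1 the longest unbroken run of such triplets was 344 and 338, and it was 337 in Col5a3. The longest run was 60 triplets in Col8a1 and 75 in Col7a1, so that interruptions divided their repeats. A proline codon, the place where prolyl 4-hydroxylase acts, stood at the last place of 49.3% of the Col8a1 triplets, 42.6% of those of Col3a1, 37.2% of those of Col7a1 and 34.7% of those of Col5a1. The share for a lysine codon at that place, the target of the lysyl hydroxylases, was 11.6% in Col8a1, 7.6% in Col3a1, 14.0% in Col7a1 and 13.1% in Col5a1. Runs of at least 5 triplets were counted, in the transcript with the longest coding sequence.

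The libraries held between 3189035 and 3907936 reads counted on genes, recovered from the deposited log2 CPM values, in which genes without reads share a floor of -0.79. At this depth 1 read was worth between 0.256 and 0.314 CPM (reads scaled to a common library total). A gene with 0 reads in a library could still have been present at up to 3 reads, between 0.768 and 0.941 CPM, a limit that covers counting error only. In a 3′ library each transcript is read at its end, so reads are compared between genes without division by length. Cbfb itself was lower in the edited cells. It had 295 and 285 reads in the sgNT libraries, against 125 and 125 in the sgCbfb libraries, which left 41.5% of the sgNT transcript level (log2 fold change -1.27, SE 0.12, limma adjusted p = 1.76e-07). This is mRNA and does not measure the protein, whose deletion in MC38 cells the study checked by immunoblot. Colon epithelial markers were nearly absent despite the cell type in the labels: 9 of them together (Epcam, Cdh1, Krt8, Krt18, Krt19, Krt20, Cdx2, Vil1 and Cldn7) had between 5 and 7 reads per library. Among 7 fibroblast markers, Pdgfra and Dcn carried most of the reads while Thy1 and Lum were at 0 in every library. Immune markers (5 genes) summed to 0 or 1 read, and endothelial markers (3 genes) to 1 or 2.

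In MC38 cells 33 of the 59 genes were expressed, meaning that 2 or more libraries reached a log2 CPM of 0, the condition for entering the test. They were 19 of the 44 chains and 14 of the 15 processing genes. This condition is low, since Col4a4 met it with 3 and 0 reads in sgNT and 0 and 2 in sgCbfb cells. With at least 1 CPM of recovered reads in at least 2 libraries the count was 32 genes, and with a minimum of 5 CPM it was 28. A further 9 chains were detected with at most 3 reads in any library, and 17 genes, 16 chains and Lox, had 0 reads in all 4. Of the 33 tested genes, 4 rose and 2 fell in sgCbfb cells, 18.2% of them, against 2.83% of all 12207 tested genes. The set was chosen with earlier results of these data known, so that this share is a description and not a test of the set. Col7a1, Col5a3, Col5a1 and Pcolce2 rose, and Col8a1 and Col3a1 fell. In bulk samples, fewer cells that make a transcript and less of it per cell cannot be told apart. In each direction the share over all tested genes was 1.57% higher and 1.25% lower. The median log2 fold change of the 33 genes was -0.022, with 16 values above and 17 below 0, and the median over all tested genes was 0.039. The groups did not overlap for 18 of the 33 genes, against 44.1% of all tested genes. The test was limma with Benjamini-Hochberg adjustment over all tested genes, two-sided, with a threshold of 0.05. Adjusted p-values below come from this test, and fold changes are differences of log2 CPM with a prior count of 2, which understates those of genes with few reads.

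**Figure D1:**
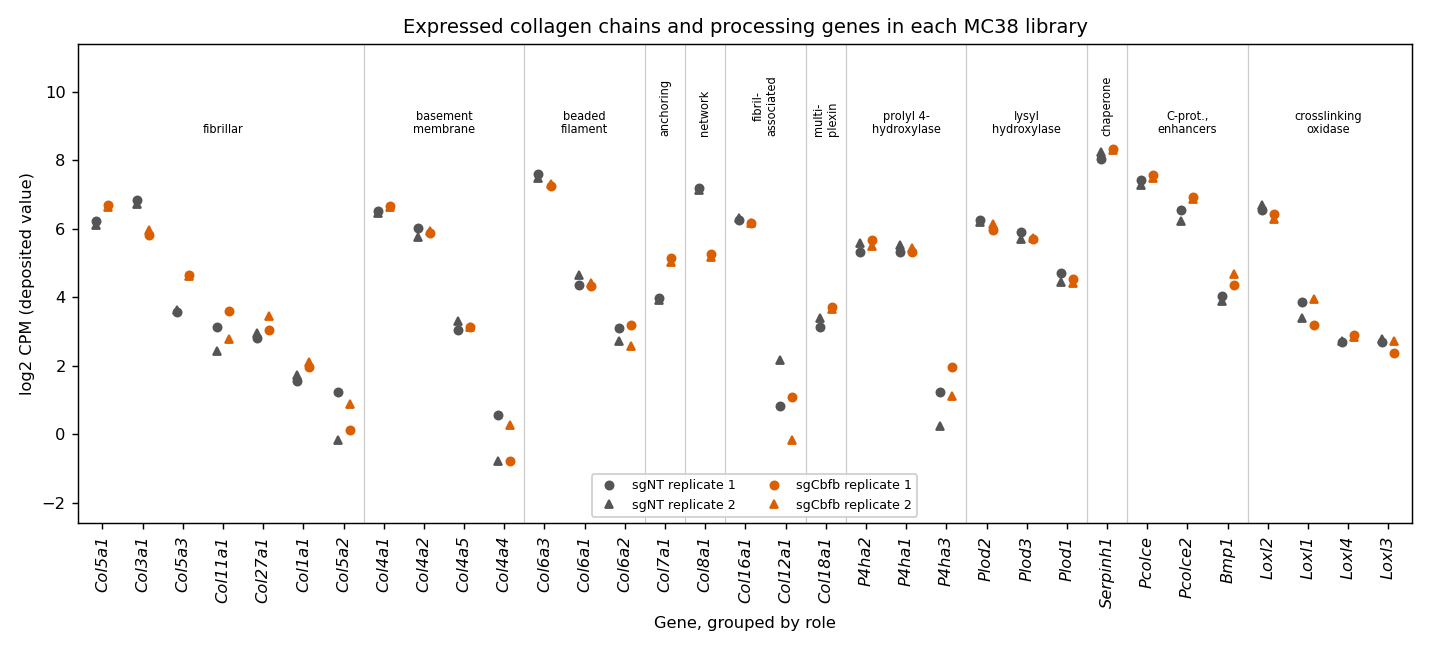
Log2 CPM (deposited value, vertical axis) of the 33 expressed genes, grouped by role, in each sgNT library (grey) and sgCbfb library (orange), with circles for replicate 1 and triangles for replicate 2. The sgCbfb points of Col8a1 and Col3a1 lie below the sgNT points, and those of Col7a1, Col5a3, Col5a1 and Pcolce2 lie above.

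**Figure D2:**
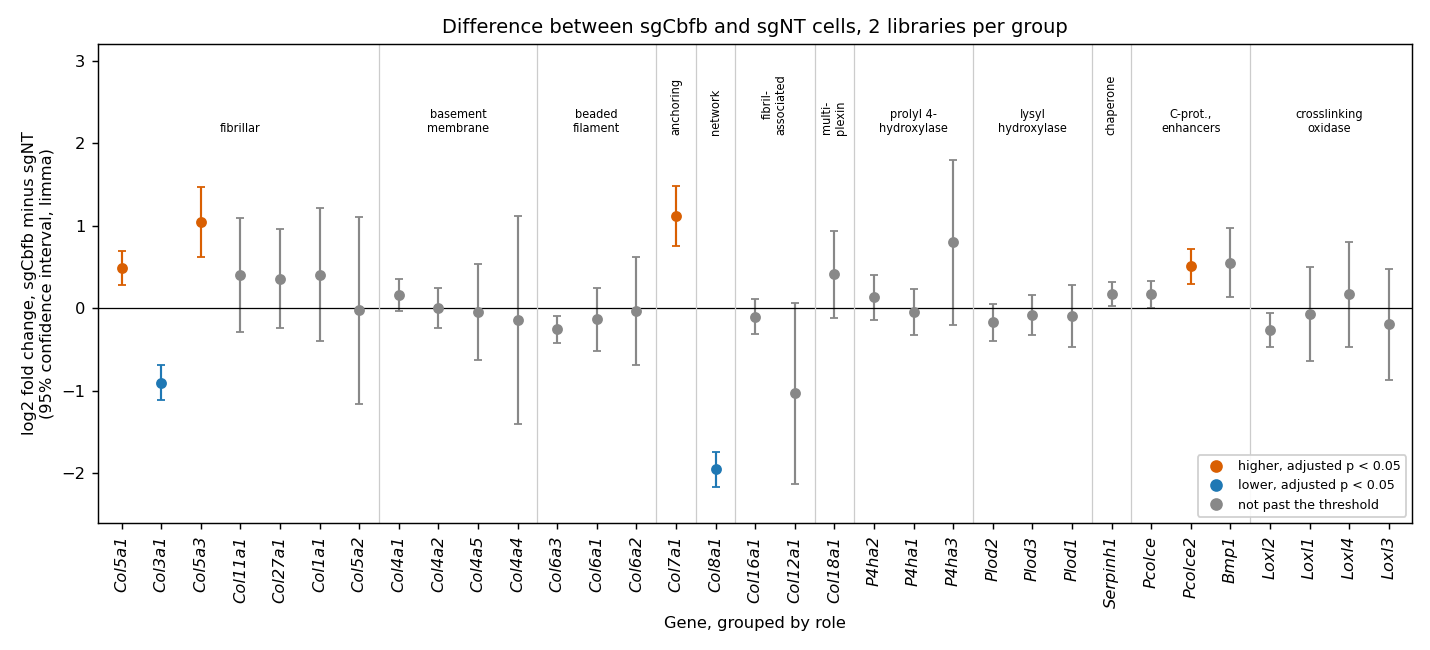
Log2 fold change (sgCbfb minus sgNT, vertical axis) of the same 33 genes with 95% confidence intervals from limma, 2 libraries per group. Genes past an adjusted p of 0.05 are coloured, 4 higher in orange and 2 lower in blue, and the rest are grey.

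Col8a1 encodes the α1 chain of type VIII collagen and was the network-forming chain with reads in these cells. It had 497 and 469 reads in the sgNT libraries, against 147 and 114 in the sgCbfb libraries. Both sgCbfb libraries were far below both sgNT libraries. The level was 7.17 ± 0.040 log2 CPM (SD, n = 2) with sgNT and 5.22 ± 0.051 with sgCbfb, a log2 fold change of -1.95 (SE 0.10, 95% confidence interval -2.16 to -1.74, limma adjusted p = 3.26e-12). This left 25.9% of the sgNT level. Its partner chain gene Col8a2 had 0 reads in all 4 libraries, as did Col10a1, the short-chain collagen of hypertrophic cartilage. Col8a1 lies on the minus strand of chromosome 16 of GRCm38, from 57624258 to 57754737.

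Col3a1, the single chain of type III collagen, which forms fine fibrils in skin, gut wall and vessels, had 386 and 354 reads in the sgNT libraries, against 217 and 197 in the sgCbfb libraries. The groups did not overlap. It went from 6.79 ± 0.069 to 5.89 ± 0.11 log2 CPM (SD, n = 2), a log2 fold change of -0.90 (SE 0.10, limma adjusted p = 2.46e-06), or 53.6% of the sgNT level. Col3a1 is on chromosome 1 (plus strand, 45311538 to 45349706). Its neighbour Col5a2, which faces it from 45374321 to 45503282 on the minus strand, had between 1 and 6 reads per library, too few to measure a change (log2 fold change -0.022, 95% confidence interval -1.15 to 1.11).

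Among the other fibrillar genes, both type V chains with enough reads rose. Type V collagen is a minor fibrillar collagen that sits within type I and type III fibrils and limits their width. Col5a1 had 254 and 227 reads in the sgNT libraries, against 402 and 313 in the sgCbfb libraries. It rose from 6.17 ± 0.095 to 6.66 ± 0.048 log2 CPM (SD, n = 2), a log2 fold change of 0.49 (SE 0.099, limma adjusted p = 0.00403). Col5a3, a less common type V chain, had 38 and 39 reads in sgNT and 96 and 76 in sgCbfb cells. Its log2 fold change came to 1.04 (SE 0.20, limma adjusted p = 0.00278), a level 2.06 times that of sgNT cells. Within each library Col3a1 had more reads than Col5a1 in sgNT cells, with 0.658 and 0.641 Col5a1 reads per Col3a1 read, and fewer in sgCbfb cells, with 1.85 and 1.59. Col5a1 lies on chromosome 2 from 27886425 to 28039514 and Col5a3 on chromosome 9 from 20770050 to 20815067. Without sgCbfb replicate 1 the adjusted p was 0.114 for Col5a1 and 0.109 for Col5a3, and without sgCbfb replicate 2 it was 0.0538 and 0.0819.

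The chains of type I collagen, the main fibrillar collagen of bone, skin and tendon, were close to absent. Col1a1 had 8 and 9 reads in sgNT and 13 and 12 in sgCbfb cells (log2 fold change 0.41, SE 0.39, limma adjusted p = 0.695). Col1a2 had between 0 and 2 reads per library and was not tested. Col11a1 and Col27a1, fibrillar chains best known from cartilage, had between 16 and 45 reads per library, with log2 fold changes of 0.40 and 0.36 that were not past the threshold (adjusted p = 0.637 and 0.630 from limma). The cartilage chain Col2a1 had 0 reads apart from 2 in sgCbfb replicate 1, and Col11a2 and Col24a1 had 0 in every library. In all, of 11 fibrillar genes 7 were tested, 2 rose and 1 fell, where 1.57% of all tested genes rose and 1.25% fell.

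Col7a1 encodes the chain of the anchoring fibrils that hold epithelial basement membranes to the tissue beneath. It had 52 and 49 reads in the sgNT libraries, against 135 and 102 in the sgCbfb libraries. The sgCbfb libraries were both above the sgNT libraries. The level went from 3.96 ± 0.041 to 5.08 ± 0.077 log2 CPM (SD, n = 2), a log2 fold change of 1.12 (SE 0.18, 95% confidence interval 0.75 to 1.48, limma adjusted p = 0.000251), or 2.17 times the sgNT level. In sgNT cells there were 0.105 and 0.104 Col7a1 reads per Col8a1 read. In sgCbfb cells there were 0.918 and 0.895. Col7a1 lies on chromosome 9 from 108953586 to 108984875 (plus strand).

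The basement membrane chains Col4a1 and Col4a2, which together make the common type IV molecule, were well covered and did not pass the threshold. Col4a1 had 308 and 294 reads in the sgNT libraries, against 394 and 317 in the sgCbfb libraries (log2 fold change 0.16, 95% confidence interval -0.030 to 0.35, limma adjusted p = 0.441). Col4a2 had 219 and 178 reads against 225 and 192 (log2 fold change 0.0051, 95% confidence interval -0.24 to 0.25, limma adjusted p = 0.991). The genes start head to head on chromosome 8, with Col4a1 ending its span at 11312826 and Col4a2 beginning at 11312805. Reads of Col4a1 per read of Col4a2 were 1.41 and 1.65 in sgNT and 1.75 and 1.65 in sgCbfb cells. Col4a5, the X-linked chain of kidney and other specialised membranes, had 26 to 32 reads per library, and Col4a4 had at most 3. Col4a3 and Col4a6 had 0 reads. Of the 4 tested type IV genes Col4a1 had the smallest unadjusted p, 0.0945.

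Type VI collagen, a beaded filament found around most cells, is assembled from the products of Col6a1, Col6a2 and a longer chain such as that of Col6a3. Col6a3 was the collagen chain with the most reads, 651 and 595 in sgNT and 594 and 505 in sgCbfb cells. Its sgCbfb values were below both sgNT values, with a log2 fold change of -0.25 (SE 0.078, limma adjusted p = 0.0894), outside the threshold. The adjusted p was 0.0450 with a minimum of 5 CPM, 0.0221 in voom after TMM scaling and 0.0220 in voom with median scaling. Col6a1 had between 66 and 81 reads per library and Col6a2 between 17 and 33, with log2 fold changes of -0.13 and -0.036. There were thus between 18.0 and 29.8 Col6a3 reads per Col6a2 read. Col6a4 had 1 read in all, and Col6a5 and Col6a6 had 0.

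Of the fibril-associated chains, which decorate fibrils made by other types, Col16a1 was expressed at a level like that of Col5a1 in sgNT cells. It had 256 and 264 reads in sgNT and 281 and 229 in sgCbfb cells (log2 fold change -0.10, 95% confidence interval -0.31 to 0.11, limma adjusted p = 0.709). Col12a1 varied widely between replicates, with 4 and 13 reads in sgNT and 6 and 1 in sgCbfb cells, so that its log2 fold change of -1.03 had a confidence interval from -2.13 to 0.066. Col14a1, Col19a1 and Col9a2 had 0 reads. The basement membrane zone multiplexin Col18a1, whose C-terminal fragment is endostatin, had 28 and 33 reads in sgNT and 49 and 38 in sgCbfb cells (log2 fold change 0.41, SE 0.25, limma adjusted p = 0.490). Its relative Col15a1 had 1 read in replicate 2 of each group. Of the 4 transmembrane chains, Col25a1 had 1 read in all and Col13a1, Col17a1 and Col23a1 had 0. Col26a1 and Col28a1 had 0 as well.

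Chain reads summed to 850.1 and 809.9 CPM in sgNT cells and to 711.9 and 711.5 CPM in sgCbfb cells. The sgCbfb sum was 85.7% of the sgNT sum, a difference of -118 CPM, and the groups did not overlap (exact permutation test over libraries, two-sided, p = 0.33, the smallest that 2 against 2 can give). With Col8a1 left out, the sums were 703.7 and 669.2 CPM in sgNT and 674.3 and 675.8 CPM in sgCbfb cells, which overlapped (exact permutation p = 1). Col8a1 is the chain found to fall the most in these same data, so this is a description and not an independent test. With Col6a3 left out instead, the sums were 658.4 and 631.5 CPM in sgNT and 559.9 and 553.1 CPM in sgCbfb cells, which did not overlap. Col6a3 gave 22.3% of the chain reads in sgNT and 21.8% in sgCbfb cells, first in both groups. Col8a1 went from 17.3% of chain reads, second in order, to 5.15%, seventh in order. Col3a1 went from 13.2% to 8.24%, while Col5a1 went from 8.60% to 14.1% and Col4a1 from 10.8% to 14.1%. These shares depend on each other, since a lower share of Col8a1 raises the rest.

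**Figure D3:**
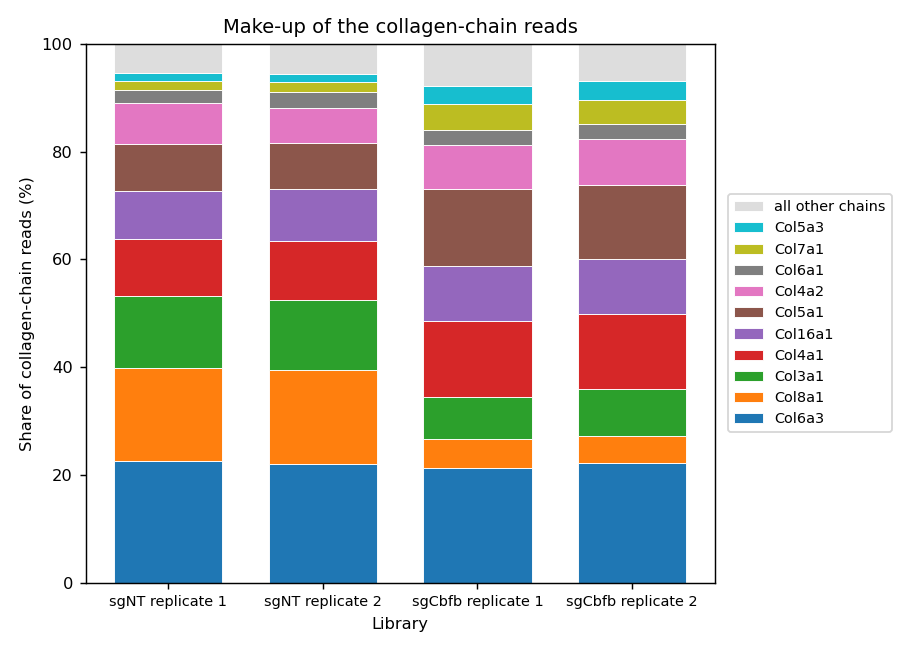
Share of all collagen-chain reads (percent, vertical axis) taken by each of the 10 chains with the highest share in sgNT cells, in each library, with all other chains in light grey. Col8a1 (orange) and Col3a1 (green) are narrower in both sgCbfb libraries, and Col5a1 (brown), Col7a1 (olive) and Col5a3 (cyan) are wider.

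Among the processing genes, Pcolce2 was the single gene of 14 tested that passed the threshold (7.14%, against 2.83% of all tested genes), too few to describe them as a group. It encodes a secreted protein that enhances the removal of the procollagen C-propeptide by Bmp1. Pcolce2 had 315 and 250 reads in sgNT and 471 and 373 in sgCbfb cells. It went from 6.39 ± 0.22 to 6.90 ± 0.030 log2 CPM (SD, n = 2), a log2 fold change of 0.51 (SE 0.10, limma adjusted p = 0.00370). It lies on chromosome 9 from 95637601 to 95698096. The adjusted p was 0.0667 without sgNT replicate 2, 0.112 without sgCbfb replicate 1 and 0.0690 without sgCbfb replicate 2.

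The protease and the other enhancer had positive differences that did not pass. Bmp1 had 54 and 47 reads in sgNT and 78 and 79 in sgCbfb cells (log2 fold change 0.55, SE 0.20, limma adjusted p = 0.163). Pcolce had 581 and 520 reads against 736 and 574 (log2 fold change 0.17, SE 0.079, limma adjusted p = 0.300). In all 3 genes both sgCbfb values were above both sgNT values, which 27.4% of all tested genes showed.

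Serpinh1 had the most reads of the 59 genes, 897 and 1009 in sgNT and 1252 and 1007 in sgCbfb cells. Its log2 fold change came to 0.17 (SE 0.072, limma adjusted p = 0.249). The prolyl 4-hydroxylase subunits P4ha1 and P4ha2 had between 133 and 197 reads per library, with log2 fold changes of -0.043 (95% confidence interval -0.32 to 0.24) and 0.13 (-0.15 to 0.41). P4ha3 had 2 to 13 reads. Of the lysyl hydroxylases, Plod2, which modifies the telopeptide lysines used in crosslinks, had the most reads, 257 and 242 in sgNT and 243 and 222 in sgCbfb cells (log2 fold change -0.17, 95% confidence interval -0.39 to 0.051, limma adjusted p = 0.501). Plod3 and Plod1 had log2 fold changes of -0.082 and -0.093. None of these 7 genes passed the threshold.

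For crosslinking, Loxl2 carried most of the reads, 318 and 345 in sgNT and 338 and 247 in sgCbfb cells. Both sgCbfb values were lower on the scaled level (log2 fold change -0.26, SE 0.10, limma adjusted p = 0.181), outside the threshold. Loxl1 had 33 to 47 reads per library in either group, Loxl4 had 20 to 27 and Loxl3 18 to 21, and none of these passed. Lox itself had 0 reads in every library. The 15 processing genes summed to 903.4 and 912.1 CPM with sgNT and to 985.2 and 974.0 CPM with sgCbfb, groups that did not overlap (exact permutation test, two-sided, p = 0.33, again the smallest possible).

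Of 32 further genes of collagen folding, export, trimming and sensing, 22 were tested. Of these, 2 rose in sgCbfb cells, Ddr1 and Itgb1 (9.09%, against 1.57% of all tested genes). This list, too, was chosen with earlier results of these data known. Ddr1, a receptor tyrosine kinase activated by collagen, had 136 and 130 reads in sgNT and 225 and 180 in sgCbfb cells (log2 fold change 0.52, SE 0.12, limma adjusted p = 0.0149). Itgb1, the β1 subunit of the collagen-binding integrins, had 1469 and 1427 reads against 1984 and 1594 (log2 fold change 0.23, SE 0.060, limma adjusted p = 0.0355). Of its collagen-binding α partners, Itga1 had 30 and 32 reads against 45 and 28 (log2 fold change 0.12, limma adjusted p = 0.888). Itga2 had 0 reads in every library, and Itga10 and Itga11 had 0 or 1. None of the 32 genes fell past the threshold in limma or in any other setting run, voom included. A negative difference at an unadjusted p under 0.05 was seen for 1 of them, Adamts14, an enzyme that trims the N-propeptide. Ddr2, the receptor for fibrillar collagens, had a log2 fold change of 0.080 (95% confidence interval -0.061 to 0.22). P4hb, the partner of the prolyl 4-hydroxylases, differed by 0.10 and Mia3, which helps procollagen leave the endoplasmic reticulum, by -0.055. The median over the 22 genes was 0.033. The call for Ddr1 was lost without sgCbfb replicate 1 (adjusted p = 0.192) or sgCbfb replicate 2 (adjusted p = 0.140), and that for Itgb1 with any of the 4 libraries left out (adjusted p from 0.0834 to 0.222 by limma).

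Fibroblast markers, which could mark another kind of cell, were higher in sum in both sgCbfb libraries. Their summed level was 69.5 and 63.6 CPM in sgNT and 77.5 and 80.6 CPM in sgCbfb cells. Of 7 genes 4 were tested and 0 passed the threshold in limma (1, Pdgfra, had an unadjusted p under 0.05). Over all 12207 tested genes 2.83% passed and 1820 had an unadjusted p under 0.05, so that 4 genes are too few to describe as a group. Pdgfra had 121 and 91 reads in sgNT and 169 and 152 in sgCbfb cells (log2 fold change 0.53, limma adjusted p = 0.0515), and Dcn had 110 and 115 against 116 and 95 (log2 fold change -0.17, adjusted p = 0.677). Pdgfrb had 4 and 6 reads against 16 and 7 (log2 fold change 0.82), and Fap had 0 and 0 against 2 and 3, so that it entered the test through sgCbfb cells alone. Pdgfra and Pdgfrb had both sgCbfb values above both sgNT values, as did 27.4% of all tested genes, and Dcn had both below. Thy1 and Lum were at 0 throughout, and Postn had 1 read in all. The part of these genes in the collagen results was not tested.

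The promoters of the 6 genes that passed were read for the letters of the RUNX core site, because CBFβ acts with RUNX proteins. The windows, from RefSeq on GRCm38.p6, reach from 250 bases before to 50 bases after the start, and 44 of the 59 genes matched by symbol. TGTGGT and TGCGGT were searched on both strands, and matches are in capitals in the lines that follow. The 250 bases before the start are printed 5′ to 3′ on the gene's strand for the genes that fell and for the pair with the largest rise in a chain.

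Col8a1: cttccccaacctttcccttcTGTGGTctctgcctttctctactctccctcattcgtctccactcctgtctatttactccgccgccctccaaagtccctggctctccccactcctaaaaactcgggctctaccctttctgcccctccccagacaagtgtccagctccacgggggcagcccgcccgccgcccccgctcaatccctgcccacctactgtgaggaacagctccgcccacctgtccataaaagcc
Col3a1: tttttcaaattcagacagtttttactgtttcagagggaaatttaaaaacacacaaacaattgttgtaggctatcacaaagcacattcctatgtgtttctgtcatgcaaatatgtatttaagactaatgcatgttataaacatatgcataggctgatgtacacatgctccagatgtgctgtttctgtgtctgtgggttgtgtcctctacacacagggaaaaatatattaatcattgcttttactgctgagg
Col7a1: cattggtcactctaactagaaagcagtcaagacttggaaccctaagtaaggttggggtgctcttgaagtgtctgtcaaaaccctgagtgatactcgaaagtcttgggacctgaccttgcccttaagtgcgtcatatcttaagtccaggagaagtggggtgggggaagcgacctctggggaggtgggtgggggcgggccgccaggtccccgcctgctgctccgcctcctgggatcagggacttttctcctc
Col5a3: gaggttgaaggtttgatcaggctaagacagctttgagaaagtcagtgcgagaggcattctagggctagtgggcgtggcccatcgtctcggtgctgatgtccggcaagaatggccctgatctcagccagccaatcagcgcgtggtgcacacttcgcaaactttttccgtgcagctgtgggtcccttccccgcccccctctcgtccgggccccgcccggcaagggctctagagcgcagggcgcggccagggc

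They lie at chr16:57754738-57754987 (minus strand), chr1:45311288-45311537 (plus), chr9:108953336-108953585 (plus) and chr9:20815068-20815317 (minus). Col8a1 held 1 match, TGTGGT, with its first base at -230 from the start, and the windows of the other 5 genes held 0. Over all 32851 windows of this length, 22.4% held at least 1 match. Of the 25 tested genes with a window, 6 had a match. These are letters in a short window and not measured binding, and these libraries hold no binding data.

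The 6 called differences kept their sign in all 17 alternatives, some of which change the test and not the fold. Col8a1 was at or below -1.91 throughout, and Col3a1 ranged from -0.98 to -0.82, Col7a1 from 1.06 to 1.17, Col5a3 from 0.99 to 1.07, Col5a1 from 0.42 to 0.56 and Pcolce2 from 0.35 to 0.66. All 6 calls were kept with vooma weights and in the voom fits. Without the mean-variance trend 0 of the 6 passed in limma, where 0 of all genes passed and 1461 had an unadjusted p under 0.05. Without a filter on low values only Col8a1 passed, and with quantile normalization, or without either sgCbfb library, Col8a1, Col3a1 and Col7a1 did.

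**Figure D4:**
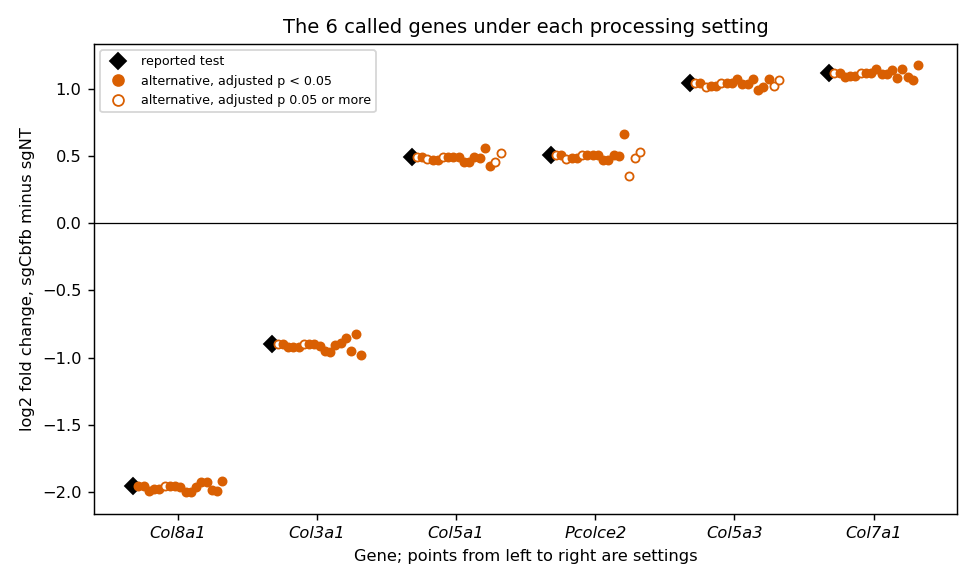
Log2 fold change (sgCbfb minus sgNT, vertical axis) of the 6 genes past the threshold in the reported test (black diamond) and in 17 alternatives (orange circles, filled where the adjusted p was under 0.05). Every value keeps the sign of the reported test, and open circles mark the settings in which a call was lost.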

How the data were processed

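Per the study's methods, 3′ mRNA reads went through cutadapt trimming, HISAT2 2.1.0 alignment to mouse GRCm38 (mm10) and counting with featureCounts (2.0.1 in the submitters' processing notes, another version in the methods). The authors deposited log2 CPM values, 1 column per library. Their steps are whole reads above a floor, which fits a prior count of 2, and recovered reads were within 0.1 of whole numbers for at least 99.99% of values. The annotation release, the strand setting and the handling of multi-mapped reads are not given in the sources used here. Without strand, Col18a1 could share reads with Slc19a1 and Loxl3 with Htra2, which overlap the 3′ ends of these genes.

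Differences were tested with limma 3.58.1 in R 4.3.3 (lmFit, eBayes with trend) on the deposited values of all 12207 genes that reached a log2 value of 0 in 2 or more libraries. The study's methods name voom with limma, which needs counts, so voom was run on recovered reads as an alternative. The other alternatives were no filter, a minimum of 5 CPM, quantile normalization, median centring, ribosomal RNA genes left out, no trend, vooma weights, a replicate block, prior counts of 0.5 and 5, each library left out and a threshold of 0.01. Within groups, libraries varied beyond counting noise (chi-square per degree of freedom 1.58 in sgNT and 2.15 in sgCbfb). Full statistics are given for members past the threshold, and shorter ones for the leading member of each role, the 5 next smallest p-values and pathway genes past the threshold. Members and lists were chosen with earlier results of these data known. Positions and coding sequences are from GENCODE M21. Figures were drawn with matplotlib 3.10.9 in Python 3.11.15.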

Additional observations from a re-analysis of the deposited data

How the results depend on the processing

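Against 4 members higher and 2 lower, there were 0 higher and 1 lower without a filter on low values, 1 higher with quantile normalization, and 0 higher and 0 lower without the mean-variance trend in limma (where 1461 of all genes had unadjusted p under 0.05; voom on library totals gave 4 and 2). With each library left out, between 1 and 4 members were higher and 2 were lower. Without sgCbfb replicate 1, and also without sgCbfb replicate 2, those called were Col7a1, Col8a1 and Col3a1. The replicate block gave 4 higher and 2 lower. Deviations of libraries sharing a number were uncorrelated across genes (-0.0042), and 535 of all genes passed with the block against 345. Over all genes the count was 55 without a filter, 88 with quantile normalization, 200 at an adjusted p under 0.01, and 147 and 152 without sgCbfb replicate 1 or 2. Pathway genes higher went from 2 to 0 without a filter, with quantile normalization, without the trend and at an adjusted p under 0.01, to 1 with ribosomal RNA genes left out, and to between 0 and 1 with each library left out. Cbfb kept -1.27 without a filter (adjusted p = 0.290) and without the trend (adjusted p = 0.115), past the threshold in neither. The difference in summed chain reads was -153 CPM with ribosomal RNA genes left out and -88.4 CPM without Col6a3, against -118 CPM. The causes were not tested.

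Signs turned for 12 genes, none of them past the threshold. Col4a2 was -0.021 with quantile normalization, -0.018 with median centring and with ribosomal RNA genes left out, -0.036 in voom with TMM scaling and -0.039 with median scaling. Col5a2 was 0.056 with a prior count of 0.5. With each library left out, Col4a2 ranged from -0.13 to 0.14, Plod3 from -0.18 to 0.012, P4ha2 from -0.0089 to 0.27, P4ha1 from -0.15 to 0.060, Plod1 from -0.22 to 0.040, Col6a1 from -0.27 to 0.0028, Loxl1 from -0.45 to 0.32, Col4a5 from -0.17 to 0.088, Col11a1 from -0.0078 to 0.81, Col6a2 from -0.34 to 0.27 and Col5a2 from -0.73 to 0.69. Col4a4 was -0.81 without sgNT replicate 2 and 0.39 without sgCbfb replicate 1, and did not enter the test without either of the other libraries. Depth limits the members with fewer than 50 reads in every library, whose standard errors were between 0.25 and 0.61.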
